A study of Mus musculus with 6 samples.

Results

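The genes described here encode subunits of the receptors for glutamate and GABA, measured in mouse hypothalamus. The set was chosen by name, with earlier results of these data known, and holds 36 genes in 6 receptor classes. These are 4 AMPA, 5 kainate and 7 NMDA receptor subunits, 6 metabotropic glutamate receptors, 12 GABA-A receptor subunits and 2 GABA-B receptor subunits. The arrays held 53 probes whose transcripts map to these genes, out of 39429 probes in all. Of the 36 genes, 34 passed the filter on dim probes and were among the 22862 genes tested; the exceptions were Gabra6 and Gabre.

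Glutamate is the main excitatory transmitter of the brain and GABA the main inhibitory one, and both act through ion channels and through slower receptors coupled to G proteins. AMPA, kainate and NMDA receptors are cation channels built from several subunits, so the mix of subunits sets the speed, conductance and calcium permeability of the channel. GABA-A receptors are chloride channels whose alpha, beta, gamma, delta, epsilon and theta subunits set their place in the membrane and their drug sensitivity, and GABA-B receptors pair the products of Gabbr1 and Gabbr2. In the hypothalamus these inputs set the firing of the neurons that control feeding and hormone release.

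The arrays cover 3 groups of male C57BL/6J mice aged 16 weeks, with 2 single-colour arrays per group. All 3 groups carry floxed alleles of Trsp (TrspFlox/Flox), the gene of the transfer RNA that brings selenocysteine into selenoproteins. TrspFF mice carry these alleles alone and are the controls, Trsp-RIPKO mice also carry RIP-Cre, and Trsp-Ins1KO mice also carry Ins1-Cre. Per the series' design text, loss of Trsp serves as a model of raised oxidative stress. RIP-Cre uses the rat insulin promoter and is known to act in pancreatic beta cells and in some hypothalamic neurons, whereas Ins1-Cre acts mainly in beta cells, so many hypothalamic cells keep Trsp in either line. No array of a Cre carrier without floxed alleles was analysed here, and the deletion was not checked because no probe carried the name Trsp. Whether the arrays of a group came from separate animals is not stated, so p-values measure only the spread between arrays, which may be technical. In whole tissue, fewer cells of a type and less RNA per cell cannot be told apart.

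The scanner files and the table of processed values deposited with them disagree on which knockout is which. Each table column labelled with one knockout followed an array labelled with the other across probes (r = 0.999998 or above over 4 columns), against r of -0.225 and -0.202 with the arrays of its own label. The TrspFF columns followed their own arrays. The scanner-file names are used here. Under the table's names, what is reported for Trsp-RIPKO would describe Trsp-Ins1KO and the reverse, and a knockout difference would turn its sign. Both TrspFF arrays lay on 1 slide and all 4 knockout arrays on another, scanned separately, so that slide and genotype cannot be told apart in a comparison with TrspFF. The knockouts were compared within 1 slide.

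The arrays were alike in overall signal. The 75th percentile of the signal ranged from 1391 to 2136, and the share of probes well above background from 68.9% to 72.0%. Over all tested genes, the SD of the replicate difference was 0.51 log2 for the controls, 0.41 for Trsp-RIPKO and 0.44 for Trsp-Ins1KO. Of 15 marker genes of hypothalamic neurons 13 were tested, and 12 of these, such as Pomc, Agrp, Oxt and Avp, were well above background on every array. Sim1 was not, and Ghrh and Otp did not pass the filter. Trsp-Ins1KO replicate 2 stood apart in 12 choroid plexus genes, whose summed linear level was 18.6 there and 75.9 to 141 on the other arrays. Some of the results that use that array are also given without it, and the rest only with it.

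Promoter sequence was taken from RefSeq (build GRCm38.p6) as the 250 bases before each annotated start. The table held 34 such windows for 27 of the 36 genes. Windows are printed for Gria2, Gabra2 and Gabrg3, since these 3 genes are among those that differed by more than 1 log2 unit between the knockouts. All lie on the minus strand and are written 5′ to 3′ in the direction of the gene, with capitals marking a GC box, GGGCGG on either strand. Gria2 lies at chr3:80802836-80803085, Gabra2 at chr5:71095850-71096099 and Gabrg3 at chr7:57387216-57387465.
Gria2: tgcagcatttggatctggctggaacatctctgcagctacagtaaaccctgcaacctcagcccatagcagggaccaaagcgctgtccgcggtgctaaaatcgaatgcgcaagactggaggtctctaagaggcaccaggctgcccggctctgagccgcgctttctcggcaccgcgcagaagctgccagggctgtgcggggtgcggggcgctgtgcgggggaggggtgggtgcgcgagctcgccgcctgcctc
Gabra2: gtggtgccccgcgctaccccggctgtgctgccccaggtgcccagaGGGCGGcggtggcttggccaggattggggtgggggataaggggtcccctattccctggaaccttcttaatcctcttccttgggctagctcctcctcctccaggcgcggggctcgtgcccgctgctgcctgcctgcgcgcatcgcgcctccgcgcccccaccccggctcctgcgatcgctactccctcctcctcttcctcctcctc
Gabrg3: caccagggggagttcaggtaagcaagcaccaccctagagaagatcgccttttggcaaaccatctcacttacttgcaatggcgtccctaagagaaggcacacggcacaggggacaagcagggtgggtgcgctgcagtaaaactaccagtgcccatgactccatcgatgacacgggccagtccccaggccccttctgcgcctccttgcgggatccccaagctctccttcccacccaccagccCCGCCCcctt

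The Gria2 window had 64.8% G and C, 19 CpG dinucleotides and 0 GC boxes. The Gabra2 window had 70.0% G and C, 18 CpG dinucleotides and 1 GC box, and the Gabrg3 window had 60.4%, 9 and 1. The receptor windows were GC-rich as a group, with a median of 61.6% G and C against 52.4% over 32851 windows of all genes. A GC box was found in 17 of 34 receptor windows and in 32.7% of all windows. The other motifs were searched on both strands and do not overlap the GC box: TGACGTCA, bound by CREB, was in 0 of 34 windows (1.55% of all), CACGTG, an E-box, in 1 window, that of Grin1 (6.02% of all), and TATAAA in 4 windows (12.4% of all). Several windows of 1 gene can overlap.

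Levels are log2 processed signal minus the log2 75th percentile of the array, so that 0 equals that percentile, and differences are log2 with moderated standard errors from limma. No receptor gene passed an adjusted p of 0.05 in any of the 3 comparisons. In Trsp-RIPKO against TrspFF 0 of 34 passed, where 1.66% of all tested genes did, and at an unadjusted p under 0.05 there were 3 of 34 (1 higher, 2 lower), against 24.0% of all genes (9.71% higher, 14.2% lower). In Trsp-Ins1KO against TrspFF 0 passed (1.82% of all genes), with 8 at an unadjusted p under 0.05 (5 higher, 3 lower), against 26.0% of all genes (13.3% higher, 12.6% lower). Between the knockouts 0 passed (0.0175% of all genes), with 11 at an unadjusted p under 0.05 (6 higher in Trsp-RIPKO, 5 lower), against 18.4% of all genes (7.64% higher, 10.8% lower). The smallest adjusted p-values were 0.0732 for Grik5, 0.061 for Grin1 and 0.263 in the 3 comparisons. The median difference of the 34 genes was 0.05, 0.03 and -0.06, near that of all tested genes at -0.01, 0.02 and -0.05. The number of receptor genes above 0 was 19, 17 and 15 of 34, where the shares of all genes were 48.2%, 53.1% and 42.1%.

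The arrays of the groups did not overlap for 17 receptor genes in Trsp-RIPKO against TrspFF (10 higher, 7 lower), where 58.3% of all genes did not overlap (28.0% higher, 30.2% lower). In Trsp-Ins1KO against TrspFF the count was 22 (12 higher, 10 lower), or 64.7%, where the share of all genes was 58.2% (31.7% higher, 26.4% lower). Between the knockouts it was 23 (11 higher, 12 lower in Trsp-RIPKO), or 67.6%, where the share of all genes was 58.6% (22.9% higher, 35.7% lower). These shares were near those of all genes, and the differences of more than 1 log2 unit lay in AMPA and GABA-A subunits.

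**Figure D1:**
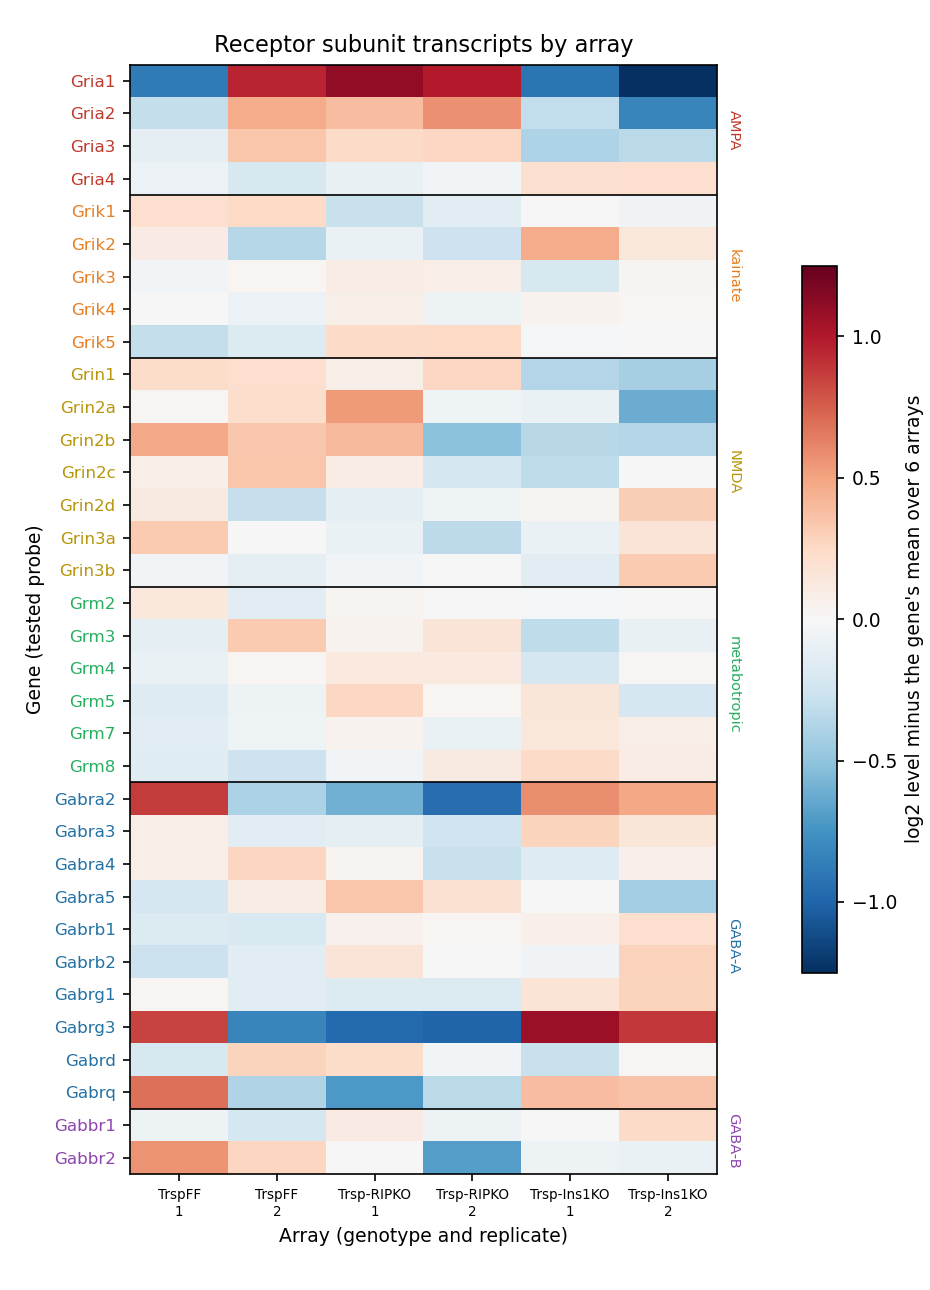
Level of the 34 tested receptor genes on each of 6 arrays, as log2 level minus the mean of that gene over the arrays, ordered by receptor class. Gria1, Gria2, Gabra2, Gabrg3 and Gabrq show strong colours that split the TrspFF pair: TrspFF replicate 1 resembles the Trsp-Ins1KO arrays and TrspFF replicate 2 the Trsp-RIPKO arrays.

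AMPA receptors carry most fast excitatory transmission, and the 3 subunit genes Gria1, Gria2 and Gria3 had higher levels on the Trsp-RIPKO than on the Trsp-Ins1KO arrays, while Gria4 was lower. Gria1 encodes GluA1, a subunit that moves to synapses during plasticity. Its level was -0.14 and 1.70 on the TrspFF arrays, 1.85 and 1.74 on the Trsp-RIPKO arrays, and -0.17 and -0.51 on the Trsp-Ins1KO arrays. TrspFF replicate 2 and both Trsp-RIPKO arrays were high, and TrspFF replicate 1 was low with both Trsp-Ins1KO arrays. The difference between the knockouts was 2.14 (SE 0.605), or 4.39-fold, and did not pass (adjusted p = 0.263). It was 1.97 without Trsp-Ins1KO replicate 2. Against TrspFF, the difference was 1.02 in Trsp-RIPKO (adjusted p = 0.359) and -1.12 in Trsp-Ins1KO (adjusted p = 0.303).

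Gria2 encodes GluA2, the subunit that makes AMPA receptors nearly impermeable to calcium. Its level was -1.03 and -0.26 in TrspFF, -0.34 and -0.16 in Trsp-RIPKO, and -1.04 and -1.55 in Trsp-Ins1KO. The knockout arrays did not overlap, and the TrspFF pair again lay one with each knockout. Trsp-RIPKO exceeded Trsp-Ins1KO by 1.05 (SE 0.312, adjusted p = 0.263), and by 0.79 without Trsp-Ins1KO replicate 2. A second Gria2 probe, at levels from -2.19 to -1.61, gave a smaller difference of 0.41 in the same direction.

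Gria3, the gene of the X-linked subunit GluA3, had a level of 0.55 and 1.01 in TrspFF, 0.90 and 0.93 in Trsp-RIPKO, and 0.28 and 0.32 in Trsp-Ins1KO. Both Trsp-Ins1KO arrays lay below all others. The difference was 0.61 between the knockouts (SE 0.167, adjusted p = 0.263) and -0.48 in Trsp-Ins1KO against TrspFF (adjusted p = 0.166), and the second Gria3 probe gave 0.44 and -0.54. Gria4 encodes GluA4, a subunit with fast kinetics, and its level was 1.66 and 1.53 in TrspFF, 1.63 and 1.69 in Trsp-RIPKO, and 1.93 and 1.94 in Trsp-Ins1KO. Here the Trsp-Ins1KO arrays were the highest on the tested probe, by 0.34 over TrspFF (SE 0.0874, adjusted p = 0.111). They lay 0.27 over Trsp-RIPKO (a Trsp-RIPKO minus Trsp-Ins1KO difference of -0.27, adjusted p = 0.263). A second Gria4 probe gave 0.10 over TrspFF and a knockout difference of -0.20. Its Trsp-Ins1KO arrays, at -0.54 and -0.37, overlapped with TrspFF at -0.45 and -0.67.

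As a class, the 4 AMPA genes had a median difference between the knockouts of 0.83, of 0.71 without Trsp-Ins1KO replicate 2, and of 0.44 with each probe tested on its own. The mean AMPA level was 0.26 and 1.00 on the TrspFF arrays, 1.01 and 1.05 in Trsp-RIPKO, and 0.25 and 0.05 in Trsp-Ins1KO. The 12 marker genes of cortex, hippocampus and amygdala, where Gria1 is strongly expressed, ran the same way between the knockouts. Of these, 12 of 12 had a higher mean in Trsp-RIPKO than in Trsp-Ins1KO, with 0 called. Their median difference was 1.82, and 0.84 without Trsp-Ins1KO replicate 2, where 12 of 12 were still above 0. In Trsp-Ins1KO against TrspFF their median was -0.81. Without Trsp-Ins1KO replicate 2 it was -0.05, with 6 genes above and 6 below 0. Their summed linear level was 59.3 and 70.2 in TrspFF, 79.98 to 84.5 in Trsp-RIPKO and 60.04 to 68.4 in Trsp-Ins1KO, and 10 of 12 were well above background on every array. Cck, a neuropeptide gene named after its values were seen, made up 78.5% to 88.2% of these sums. The other 11 genes summed to 8.06 and 12.02 in TrspFF, 15.4 and 17.2 in Trsp-RIPKO, and 10.5 and 7.11 in Trsp-Ins1KO. Slc17a7, the vesicular glutamate transporter of cortical neurons, had levels of -0.88 and -0.34, then -0.03 and 0.02, then -1.17 and -1.77 in the same order of groups (knockout difference 1.47, adjusted p = 0.263). The part of tissue from these regions in the AMPA differences was not tested.

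**Figure D2:**
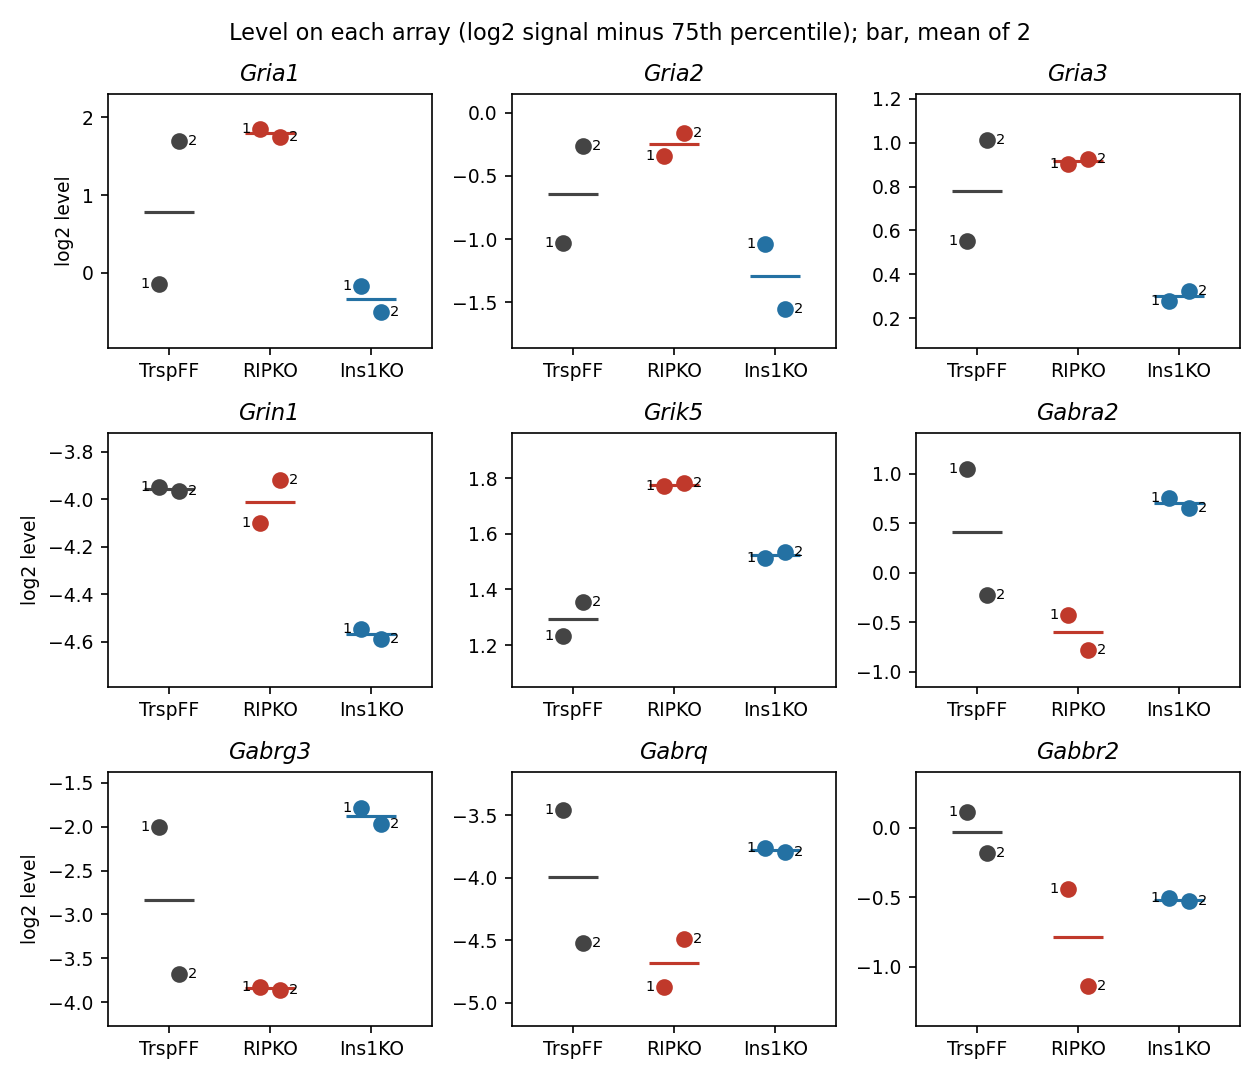
Level of 9 receptor genes on each array (log2 processed signal minus the array's 75th percentile, vertical axes differ) for TrspFF, Trsp-RIPKO and Trsp-Ins1KO, with replicate numbers beside the points and a bar at the mean of 2 arrays. For Gria1, Gabra2 and Gabrg3 the knockout pairs are tight and the TrspFF points lie far apart, at -0.14 and 1.70 for Gria1 and at -2.00 and -3.68 for Gabrg3.

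Kainate receptors modulate release and excitability, and their 5 genes showed small differences, with Grik1 and Grik5 the ones that separated the TrspFF arrays from all 4 knockout arrays. Grik5 encodes GluK5, a high-affinity subunit that works only in assembly with others. Its level was 1.23 and 1.36 in TrspFF, 1.77 and 1.78 in Trsp-RIPKO, and 1.51 and 1.53 in Trsp-Ins1KO. The order of the groups held on every array, with TrspFF lowest and Trsp-RIPKO highest. The difference was 0.48 in Trsp-RIPKO against TrspFF (SE 0.0856, 1.4-fold, adjusted p = 0.0732) and 0.23 in Trsp-Ins1KO (adjusted p = 0.184). Grik5 was the receptor gene closest to the threshold in the first of these, and it passed with normexp background correction (0.64, adjusted p = 0.0372) and with a variance trend and robust fit (adjusted p = 0.0333), where 423 and 785 of all genes passed.

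Grik1, the gene of GluK1, ran the other way. Its level was -0.86 and -0.83 in TrspFF, -1.35 and -1.20 in Trsp-RIPKO, and -1.08 and -1.12 in Trsp-Ins1KO. All knockout arrays lay below both TrspFF arrays, by a mean of -0.43 in Trsp-RIPKO (SE 0.0906, adjusted p = 0.0906) and -0.25 in Trsp-Ins1KO (adjusted p = 0.171). Grik2, the gene of GluK2, had its 2 kept probes in opposite directions between the knockouts, at -0.47 (adjusted p = 0.284) and 0.10. Grik3 and Grik4 differed by at most 0.17 in any comparison, and a second Grik3 probe was above background on 0 arrays.

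NMDA receptors need an obligatory GluN1 subunit, encoded by Grin1, and are the calcium-permeable glutamate receptors of synaptic plasticity. Grin1 was the receptor gene nearest the threshold in Trsp-Ins1KO against TrspFF. Its level was -3.95 and -3.96 in TrspFF, -4.10 and -3.92 in Trsp-RIPKO, and -4.55 and -4.59 in Trsp-Ins1KO. Both Trsp-Ins1KO arrays were below the other 4, which lay close together. The difference from TrspFF was -0.61 (SE 0.0966, 1.53-fold lower, adjusted p = 0.061), or -0.59 without Trsp-Ins1KO replicate 2, and the knockout difference was 0.56 (adjusted p = 0.263). With a filter that required signal above background on all 6 arrays, the adjusted p in Trsp-Ins1KO against TrspFF was 0.04997, with 514 of all genes past the threshold, and with normexp the difference was -0.31. The Grin1 probe is a dim one, and over all alternatives its adjusted p in that comparison ran up to 0.22.

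Of the 4 GluN2 subunit genes, 3 had a lower mean in Trsp-Ins1KO than in TrspFF, and 0 passed the test. Grin2a had a level of -0.51 and -0.30 in TrspFF, 0.01 and -0.58 in Trsp-RIPKO, and -0.61 and -1.14 in Trsp-Ins1KO. A second, dimmer Grin2a probe gave -0.35 in Trsp-RIPKO against TrspFF, where the tested probe gave 0.12. In Trsp-Ins1KO against TrspFF the second probe gave -0.73 and the tested one -0.47. Grin2b, whose subunit prevails in young brain and outside synapses, had a level of 0.43 and 0.29, then 0.36 and -0.56, then -0.40 and -0.41. For Grin2b the Trsp-RIPKO arrays differed by -0.92, the widest replicate gap of any receptor gene in that group, and Trsp-Ins1KO lay below TrspFF by -0.77 (SE 0.308, adjusted p = 0.204). A second Grin2b probe gave -0.48 in that comparison and 0.09 in Trsp-RIPKO against TrspFF, where the tested probe gave -0.46. Grin3a, which lowers the calcium permeability of NMDA receptors, was at -1.32 and -1.66 in TrspFF, -1.74 and -1.98 in Trsp-RIPKO, and -1.73 and -1.49 in Trsp-Ins1KO, with Trsp-RIPKO lowest. Grin2c, Grin2d, Grin3a and Grin3b differed by at most 0.37 in size in any comparison, and their smallest adjusted p was 0.266.

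The class median of the 7 NMDA genes was -0.37 in Trsp-Ins1KO against TrspFF, with 2 of 7 above 0, and -0.05 in Trsp-RIPKO. Without Trsp-Ins1KO replicate 2 the former was -0.24. Between the knockouts the median was 0.09, 0.25 without that array and -0.09 without Trsp-RIPKO replicate 1. The median of -0.05 in Trsp-RIPKO was 0.09 with quantile normalization.

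Metabotropic glutamate receptors act through G proteins, and on the tested probes their 6 genes had the smallest differences, none above 0.37 in size. Grm8, a presynaptic receptor of group III, had a level of -0.69 and -0.80 in TrspFF, -0.58 and -0.43 in Trsp-RIPKO, and -0.30 and -0.45 in Trsp-Ins1KO. All knockout arrays were above both TrspFF arrays, by a mean of 0.24 (adjusted p = 0.252) and 0.37 (SE 0.106, adjusted p = 0.125). Grm2, Grm3, Grm4 and Grm7 differed by between -0.32 and 0.31 on the tested probes. A second, dimmer Grm4 probe gave a knockout difference of 0.57, with its TrspFF arrays apart at -3.86 and -2.905. Grm5, a group I receptor that releases calcium from stores, was at 2.05 and 2.15 in TrspFF, 2.47 and 2.24 in Trsp-RIPKO and 2.36 and 2.00 in Trsp-Ins1KO, and its 3 probes disagreed in sign.

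GABA-A receptors carry fast inhibition, and here 3 genes, Gabrg3, Gabra2 and Gabrq, mirrored Gria1: they were low on the Trsp-RIPKO arrays and on TrspFF replicate 2, and high on the Trsp-Ins1KO arrays and on TrspFF replicate 1. Gabrg3 encodes the gamma3 subunit. Its level was -2.00 and -3.68 in TrspFF, -3.82 and -3.85 in Trsp-RIPKO, and -1.78 and -1.97 in Trsp-Ins1KO. The knockout difference was -1.96 (SE 0.544), or 3.9-fold, and did not pass (adjusted p = 0.263). It was -2.05 without Trsp-Ins1KO replicate 2. Against TrspFF it was -0.998 in Trsp-RIPKO (adjusted p = 0.326) and 0.97 in Trsp-Ins1KO (adjusted p = 0.319). A dimmer Gabrg3 probe, at -5.13 to -4.66 on the 6 arrays, gave a knockout difference of -0.22 and did not split the TrspFF pair, at -5.09 and -5.13.

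Gabra2 encodes alpha2, a subunit found at inhibitory synapses on the axon initial segment. Its level was 1.04 and -0.22 in TrspFF, -0.43 and -0.78 in Trsp-RIPKO, and 0.76 and 0.65 in Trsp-Ins1KO. The Trsp-RIPKO arrays lay below all others, by -1.30 against Trsp-Ins1KO (SE 0.428, 2.47-fold, adjusted p = 0.263) and -1.01 against TrspFF (adjusted p = 0.236). Gabrq, the gene of the theta subunit, had a level of -3.46 and -4.52 in TrspFF, -4.87 and -4.49 in Trsp-RIPKO, and -3.76 and -3.79 in Trsp-Ins1KO, with a knockout difference of -0.90 (SE 0.369, adjusted p = 0.276).

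Other GABA-A genes differed by less. Gabrg1, the gene of gamma1, was at 0.74 and 0.58 in TrspFF, 0.55 and 0.54 in Trsp-RIPKO, and 0.88 and 0.99 in Trsp-Ins1KO. The Trsp-Ins1KO arrays were the highest, and the knockout difference was -0.40 (SE 0.0974, adjusted p = 0.263), with -0.63 from the second probe. Gabra3, the gene of alpha3, had a knockout difference of -0.40 (adjusted p = 0.263) and its second, dimmer probe one of -0.23. In Trsp-Ins1KO against TrspFF these Gabra3 probes had opposite signs, at 0.24 and -0.38. In Trsp-RIPKO against TrspFF they gave -0.15 and -0.61. Gabra5, whose subunit serves tonic inhibition outside synapses, was at -0.41 and -0.11 in TrspFF, 0.15 and -0.01 in Trsp-RIPKO, and -0.21 and -0.63 in Trsp-Ins1KO. Its Trsp-RIPKO arrays lay above all others, and its knockout difference had the opposite sign, at 0.49 (adjusted p = 0.271), although it is the next gene to Gabrg3 on chromosome 7. Gabrb1 and Gabrb2, genes of beta subunits, were higher on all 4 knockout arrays than on both TrspFF arrays, by 0.22 and 0.28 in Trsp-RIPKO and 0.31 and 0.33 in Trsp-Ins1KO (adjusted p from 0.125 to 0.308). Gabra4 was lower on all 4, by -0.29 and -0.21, and Gabrd, the delta subunit of extrasynaptic receptors, differed by at most 0.23.

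As a class, the 10 tested GABA-A genes had a median difference of -0.13 in Trsp-RIPKO against TrspFF, 0.26 in Trsp-Ins1KO against TrspFF and -0.25 between the knockouts, with 8 of 10 below 0 in the last (42.1% of all genes were above 0). Without Trsp-Ins1KO replicate 2 the knockout median was -0.18, and with no filter it was -0.40. The first of these medians was -0.03 with median scaling and -0.24 with the mean of a gene's probes, and the second was 0.099 without TrspFF replicate 2. The mean level was 0.72 and 0.39 on the TrspFF arrays, 0.37 and 0.26 in Trsp-RIPKO, and 0.75 and 0.78 in Trsp-Ins1KO. The marker genes of hypothalamic neurons had a median knockout difference of -0.65, with 11 of 13 below 0 and 0 called. Their summed linear level was 92.1 to 99.2 in TrspFF, 88.5 to 112 in Trsp-RIPKO and 160.1 to 162 in Trsp-Ins1KO, and their part in the GABA-A differences was not tested. Gabra2 lies next to Gabrg1 on chromosome 5 and Gabrq next to Gabra3 on X, and each of these neighbours had a knockout difference below 0.

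**Figure D3:**
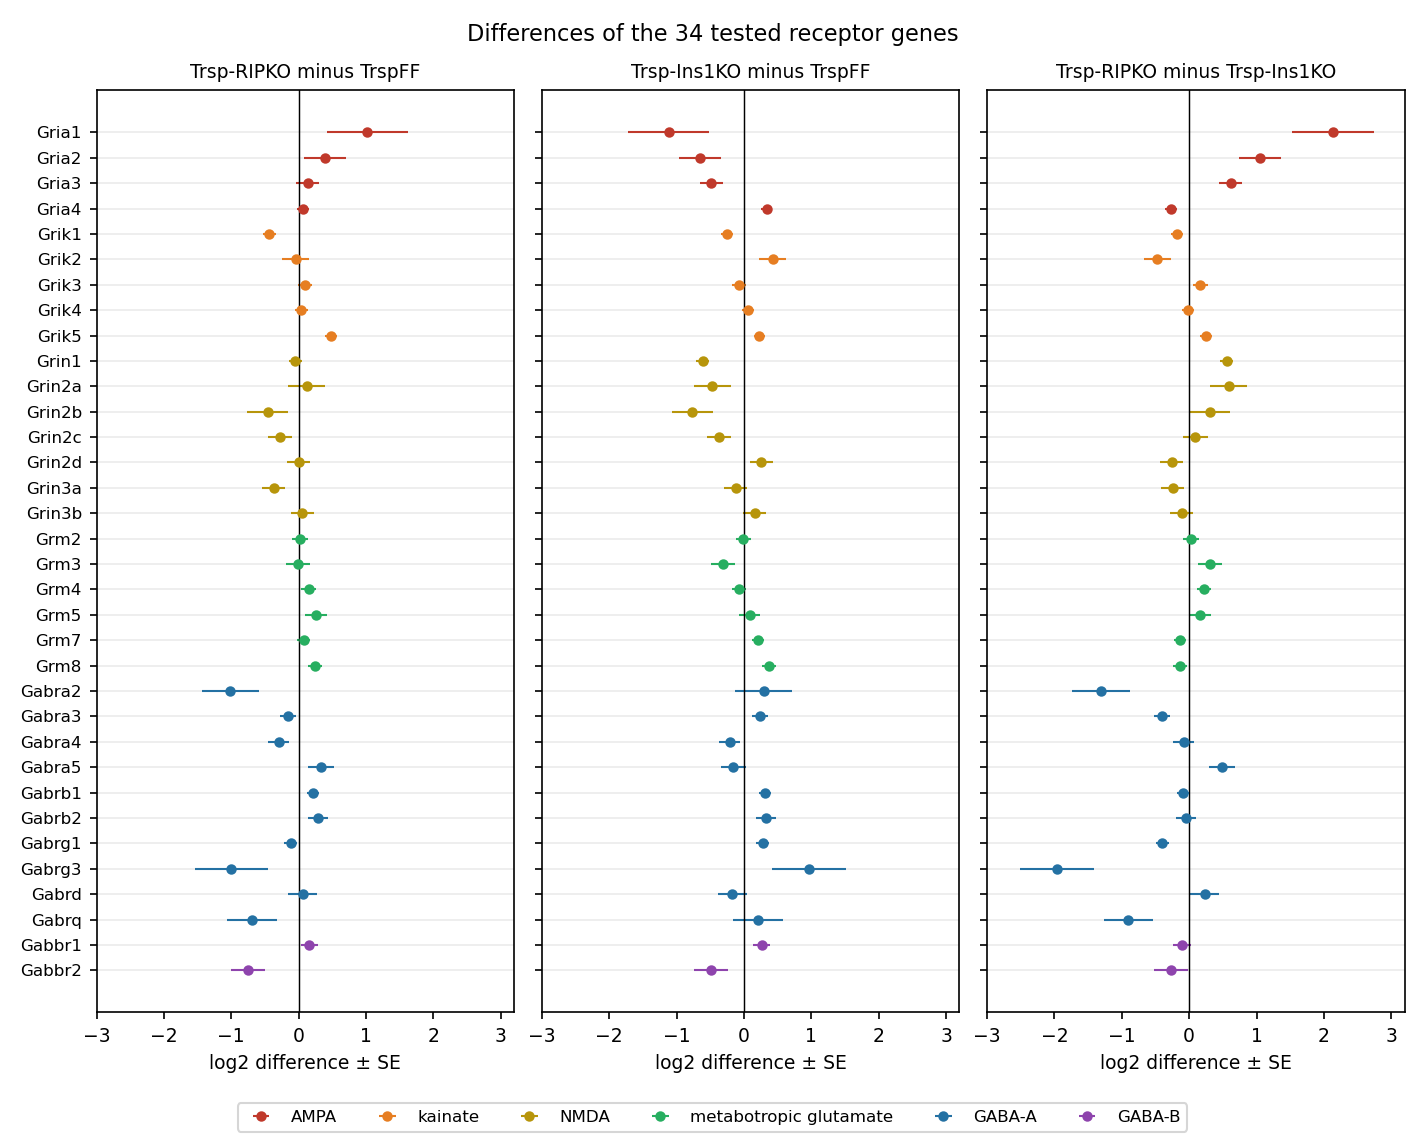
Fitted log2 difference with its standard error (horizontal bar) of the 34 tested receptor genes, coloured by class, in Trsp-RIPKO minus TrspFF, Trsp-Ins1KO minus TrspFF and Trsp-RIPKO minus Trsp-Ins1KO. The points farthest from 0 are Gria1 at 2.14 and Gabrg3 at -1.96 in the third panel, both with wide bars of 0.605 and 0.544.

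GABA-B receptors are slow inhibitory receptors that need both of their subunits. Gabbr2, which couples the receptor to its G protein, had a level of 0.12 and -0.18 in TrspFF, -0.44 and -1.13 in Trsp-RIPKO, and -0.51 and -0.53 in Trsp-Ins1KO. All 4 knockout arrays lay below both TrspFF arrays. The difference was -0.75 in Trsp-RIPKO (SE 0.253, 1.69-fold lower, adjusted p = 0.174), running from -1.10 without Trsp-RIPKO replicate 1 to -0.41 without Trsp-RIPKO replicate 2, and -0.48 in Trsp-Ins1KO (adjusted p = 0.29). Its 3 probes had the same sign, with -0.35 and -0.91 in Trsp-RIPKO and -0.32 and -0.88 in Trsp-Ins1KO from the other two. Gabbr1, which binds GABA, was at 3.94 and 3.79 in TrspFF, 4.11 and 3.94 in Trsp-RIPKO, and 4.01 and 4.25 in Trsp-Ins1KO. Its probes differed in sign in both comparisons with TrspFF, and the tested one gave 0.16 (adjusted p = 0.481) and 0.26 (adjusted p = 0.265).

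Some receptor genes separated the TrspFF arrays from all knockout arrays, without passing the test in either comparison. Grik5, Grm8, Gabrb1 and Gabrb2 were higher on all 4 knockout arrays than on both TrspFF arrays, 4 of 34 where 16.9% of all genes did so. Grik1, Gabra4 and Gabbr2 were lower on all 4, 3 of 34 against 17.5% of all genes. Both comparisons share the TrspFF arrays, and slide cannot be told apart from genotype in them. Of the 13 genes with several kept probes, all probes had the same sign in 6 genes for Trsp-RIPKO against TrspFF, in 9 for Trsp-Ins1KO against TrspFF and in 11 between the knockouts.

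The TrspFF arrays lay far apart in the genes with the largest knockout differences. The TrspFF arrays differed by more than 1 log2 unit in 4 receptor genes, Gria1 (1.84), Gabrg3 (-1.67), Gabra2 (-1.26) and Gabrq (-1.06, replicate 2 minus replicate 1), whereas 0 receptor genes differed by that much within either knockout. The SD of the replicate difference over the receptor genes was 0.58 in TrspFF, 0.26 in Trsp-RIPKO and 0.25 in Trsp-Ins1KO. A fit of the 4 knockout arrays alone, which leaves the TrspFF spread out of the error, called 318 of 22862 genes between the knockouts (162 higher, 156 lower in Trsp-RIPKO; 1.39%). These included Gria1 (2.14, SE 0.149, adjusted p = 0.0271) and Gabrg3 (-1.96, SE 0.102, adjusted p = 0.0185). Gabra2 and Gria3 came next without passing (adjusted p = 0.058 and 0.0685), and 12 of 34 receptor genes had an unadjusted p under 0.05 (23.0% of all genes).

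Leaving out either TrspFF array repeats the fit of the 4 knockout arrays for the knockout comparison, because a lone TrspFF array adds no spread. It is therefore no separate check of the Gria1 and Gabrg3 calls. Without TrspFF replicate 1, the difference in Trsp-Ins1KO against the remaining TrspFF array was 1.80 for Gabrg3 and -2.04 for Gria1. Without TrspFF replicate 2, the difference in Trsp-RIPKO against TrspFF was 1.94 for Gria1, -1.83 for Gabrg3 and -1.64 for Gabra2. In these fits the lone TrspFF array is assumed to vary like the other groups.

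The gap between the TrspFF arrays followed the gap between the knockouts, gene by gene. Across the 34 receptor genes, TrspFF replicate 2 minus replicate 1 and Trsp-RIPKO minus Trsp-Ins1KO, which share no array, had r = 0.948 and rho = 0.84, and 27 of 34 (79.4%) had the same sign. Over all 22862 genes r was 0.665 and rho 0.643, with 75.1% of the same sign. Without Gria1 and Gabrg3, r over the other 32 receptor genes was 0.881. Genes are not independent replicates and share the tissue pieces and arrays, and the order of replicates is arbitrary, so these values describe a shared pattern and carry no test. Grin1 departed from it, with a TrspFF gap of -0.01 beside a knockout difference of 0.56.

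**Figure D4:**
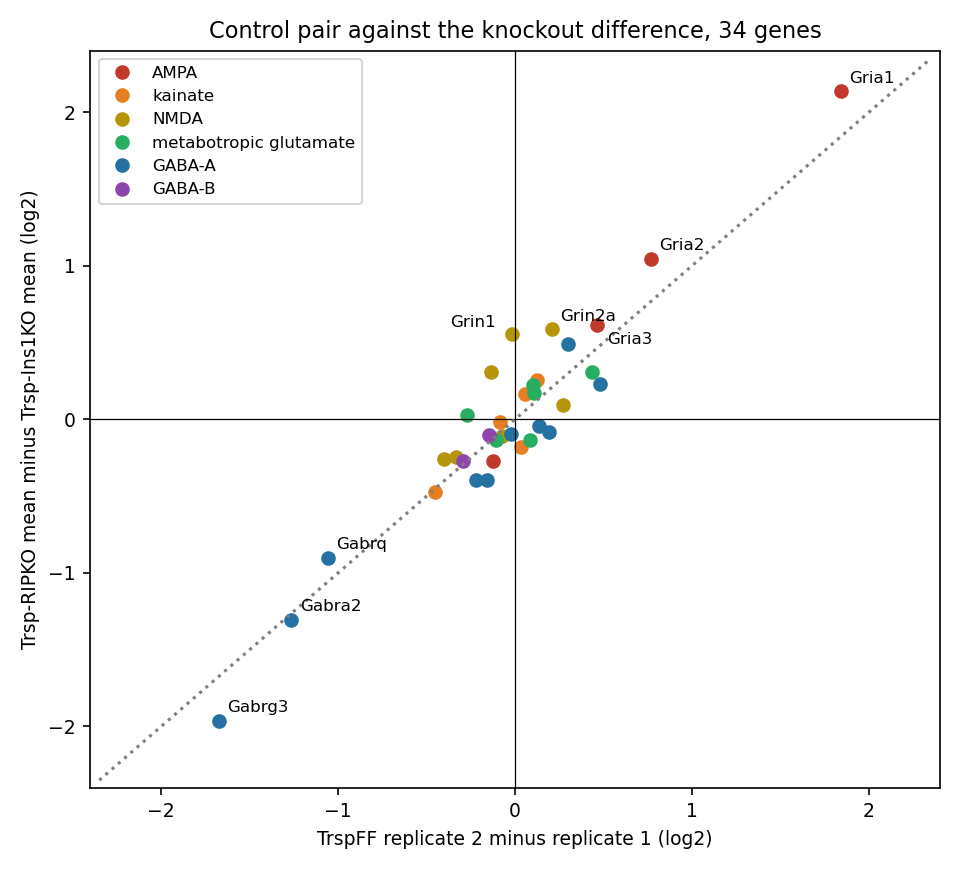
Each point is 1 of 34 receptor genes, coloured by class: the horizontal axis is TrspFF replicate 2 minus replicate 1 (log2), the vertical axis the mean of Trsp-RIPKO minus that of Trsp-Ins1KO (log2), and the dotted line marks equality. Gria1 (1.84 and 2.14) and Gabrg3 (-1.67 and -1.96) lie at the ends near the line, and Grin1 lies off it.

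Genes that work with the receptors were examined in 4 lists. Among 16 auxiliary subunits of glutamate receptors, 3 were higher and 2 lower in Trsp-RIPKO against TrspFF at an unadjusted p under 0.05. The share of all genes was 24.0%. The counts were 1 and 2 in Trsp-Ins1KO against TrspFF (26.0% of all genes), and 3 and 1 between the knockouts (18.4%). Of these genes, Cacng4, a regulatory subunit of AMPA receptors, fell in Trsp-Ins1KO. Its level was -2.30 and -2.18 in TrspFF, -2.70 and -2.55 in Trsp-RIPKO, and -3.19 and -3.09 in Trsp-Ins1KO, with the groups in that order on every array. The fall from TrspFF was -0.90 (SE 0.104, adjusted p = 0.0362), the 1 call among these 16 genes in that comparison, where 1.82% of all genes passed. For Cacng4 the difference was -0.38 in Trsp-RIPKO (adjusted p = 0.134). It did not pass with only the 2 groups (adjusted p = 0.101) or the replicate block (adjusted p = 0.0733), where 0 of all genes passed. It also passed in none of the 6 fits without 1 array each, with differences from -0.96 to -0.84. Most of those fits called few genes of any kind or none. Cacng2, the gene of stargazin, was at 1.75 and 1.87, then 1.45 and 1.37, then 1.43 and 1.43, below TrspFF by -0.40 (adjusted p = 0.0976) and -0.38 (adjusted p = 0.0963). Cacng3 was highest on the Trsp-RIPKO arrays, at -1.57 and -1.21, then -0.78 and -0.43, then -1.20 and -1.44 (knockout difference 0.71, adjusted p = 0.263).

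The 18 scaffold and signalling genes of glutamate synapses gave 0 calls in each comparison, with 5, 5 and 8 at an unadjusted p under 0.05, against 24.0%, 26.0% and 18.4% of all genes. The 8 were all higher in Trsp-RIPKO (7.64% of all genes). Between the knockouts 16 of 18 were higher in Trsp-RIPKO (median 0.32), where 42.1% of all genes were. Homer2, which links metabotropic receptors to calcium stores, was at -0.46 and -0.15 in TrspFF, -0.13 and -0.16 in Trsp-RIPKO, and -0.71 and -0.78 in Trsp-Ins1KO (knockout difference 0.60, SE 0.127, adjusted p = 0.263). Dlgap1, a scaffold of the postsynaptic density, had a knockout difference of 0.66. Nsf, which recycles AMPA receptors, was lower than TrspFF in both knockouts, by -0.55 (adjusted p = 0.0978) and -0.58 (adjusted p = 0.087).

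The 12 scaffold and auxiliary genes of GABA synapses gave 0 calls in each comparison, with 0, 3 and 0 at an unadjusted p under 0.05 (24.0%, 26.0% and 18.4% of all genes), and medians of -0.02, 0.02 and -0.09. Nlgn2, an adhesion protein of inhibitory synapses, was 0.19 and 0.28 above TrspFF in the knockouts (adjusted p = 0.251 and 0.14). The 17 genes of transmitter synthesis and transport also gave 0 calls, with 3, 5 and 9 at an unadjusted p under 0.05, against the same shares of all genes. Abat, which breaks down GABA, was at 4.85 and 4.79 in TrspFF, 4.55 and 4.52 in Trsp-RIPKO, and 4.88 and 4.93 in Trsp-Ins1KO, a knockout difference of -0.37 (SE 0.08, adjusted p = 0.263). Slc6a11, a GABA transporter of astrocytes, had a knockout difference of -0.40 (adjusted p = 0.263).

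Marker lists of other tissue and cell types were set beside the receptor classes. Like the AMPA genes, endothelial genes were mostly higher in Trsp-RIPKO than in Trsp-Ins1KO, with 7 of 8 above 0, a median of 0.71 and 5 at an unadjusted p under 0.05, against 18.4% of all genes. In Trsp-Ins1KO against TrspFF 8 of 8 were below 0 (median -0.39). Their summed linear level was 8.99 and 10.3 in TrspFF, 10.6 and 9.51 in Trsp-RIPKO, and 7.36 and 7.78 in Trsp-Ins1KO. Of the oligodendrocyte genes, 10 of 10 were above 0 between the knockouts (median 0.31), with summed levels of 187 and 227, then 212 and 191, then 155 and 179. No gene of either list was called. Striatal genes, like Grik1, Gabra4 and Gabbr2, had lower means in both knockouts than in TrspFF, with 10 of 10 below 0 in Trsp-RIPKO (median -0.62) and 9 of 10 in Trsp-Ins1KO (median -0.55). Gpr6 was called in both (-0.78, adjusted p = 0.0294, and -0.58, adjusted p = 0.0469) and Adora2a in Trsp-Ins1KO (-2.41, adjusted p = 0.0375). This made 1 of 10 genes in Trsp-RIPKO and 2 of 10 in Trsp-Ins1KO, where 1.66% and 1.82% of all genes passed. Slide and genotype cannot be told apart in these comparisons. All 3 calls were lost with only the 2 groups compared, at adjusted p from 0.0858 to 0.136, and with the replicate block, at 0.076 to 0.105. In both settings 0 of all genes passed. In the 6 fits without 1 array each, Gpr6 passed in none and Adora2a passed in Trsp-Ins1KO only without TrspFF replicate 1. Most of those fits called few genes of any kind or none. The summed linear level of the striatal genes was 26.3 and 31.7 in TrspFF, 19.6 and 20.4 in Trsp-RIPKO, and 24.3 and 25.04 in Trsp-Ins1KO. All 10 of 10 were well above background on every array. Genes of all neurons had medians of -0.01, 0.08 and -0.07, and astrocyte genes of -0.08, 0.13 and -0.21, in the 3 comparisons. The knockout medians of thalamic, cerebellar and microglial genes were -0.24, -0.30 and -0.26. Choroid plexus genes had a median of 1.81 between the knockouts, and of 0.43 without Trsp-Ins1KO replicate 2. The part of these tissues in the receptor differences was not tested.

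**Figure D5:**
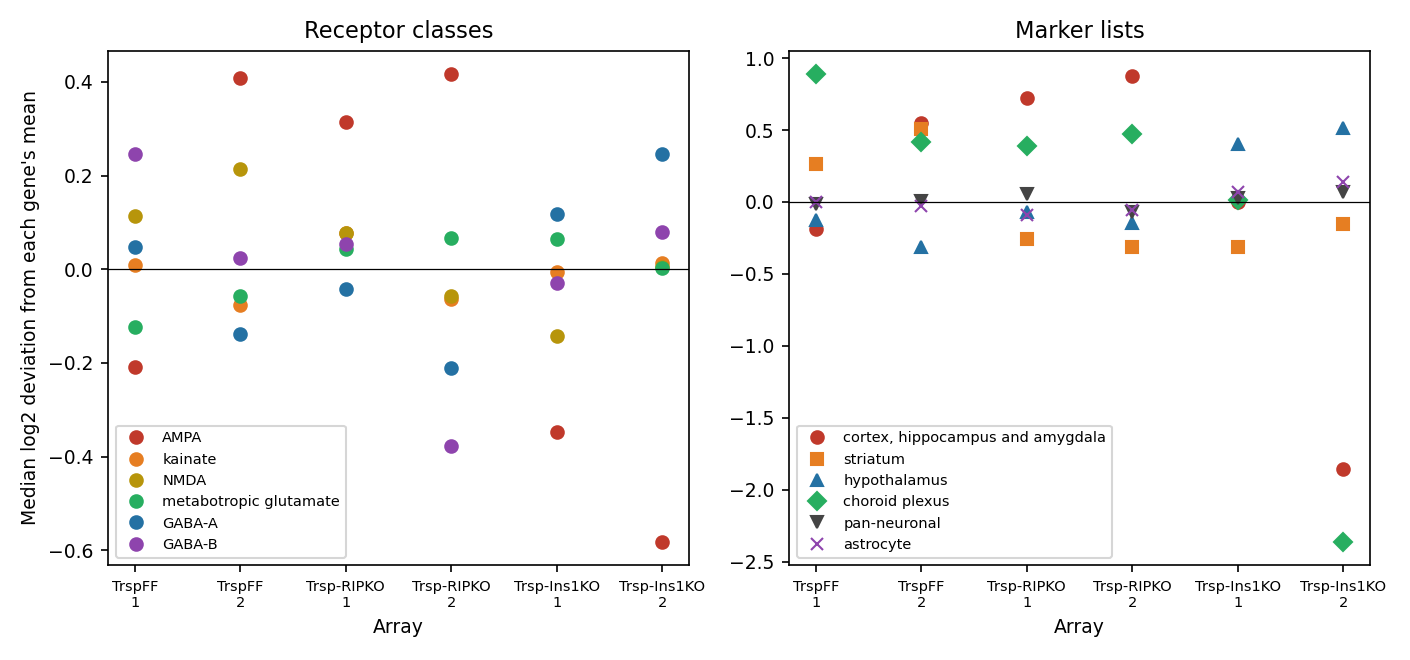
Median over genes of the log2 deviation from the gene's own mean over 6 arrays, for the 6 receptor classes (left) and 6 marker lists (right, on a wider scale). AMPA genes and the cortex, hippocampus and amygdala list are both high on TrspFF replicate 2 and the Trsp-RIPKO arrays and lowest on Trsp-Ins1KO replicate 2 (AMPA -0.58, cortex list -1.85), where choroid plexus genes are also low (-2.36).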

How the data were processed

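Total RNA of mouse hypothalamus was labelled with Cy3 and hybridised to 6 Agilent arrays, 2 per genotype. Per the file headers, Agilent Feature Extraction 10.7.3.1 wrote the deposited scanner files, which hold each spot's background-subtracted intensity (processed signal) and flags. The deposited value table holds log2 values of the same probes, centred on each probe's median over the arrays; its scaling by the authors is not given in the sources used.

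For 43020 spots that are not controls, log2 was taken, unflagged spots were averaged per probe and the array's 75th percentile was subtracted. Probes well above background on both arrays of a group were kept (28064 of 39429), and the brightest kept probe stood for its gene. Probes were named through their accessions and a gene table of GRCm38.p6: 26055 (66.1%) had a symbol. Pairs of genotypes were compared in R 4.3.3 with limma 3.58.1, using lmFit over the 6 arrays together and eBayes, and p-values were adjusted by Benjamini-Hochberg over 22862 genes (threshold 0.05), with 4.87 degrees of freedom and a median standard error of 0.127. On simulated data of this design for Trsp-RIPKO against TrspFF (22862 genes), 55.2%, 80.6% and 95.5% of genes with true log2 differences of 1, 2 and 3 were called. There 22662 genes were left unchanged and noise was drawn independently for each gene. In the real data 24.0% of genes had an unadjusted p under 0.05 in that comparison. The shares called depend on these settings, and none is given for the knockout comparison. The number of arrays limits the precision.

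All 36 receptor genes could be named, and from each of 15 other lists (4 of pathways, 11 of markers) genes past the threshold and up to 4 with the smallest p. Full array values were given for receptor genes with an unadjusted p under 0.05 and a difference of at least 0.5, and for the largest differences without overlap of arrays, up to 8 a comparison. The receptor genes and the lists were chosen with earlier results of these data known. Hypothalamic markers in the tissue check, Cck and the cerebellar genes were named outside this rule. 1 marker gene is not reported here. Alternatives were normexp background correction (offset 50), quantile and median scaling, the deposited value table, other filters and probe rules, a variance trend with robust fit, fits of 2 groups, a minimum of 2-fold, the replicate number as a block, and fits without 1 array each. Naming the table's knockout columns by the scanner files they match, and the alternatives for the 15 lists, were added after seeing the data.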

Additional observations from a re-analysis of the deposited data

Results flagged for a closer look

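The probe of Gabra6, the gene of the alpha6 subunit of GABA-A receptors, known from cerebellar granule cells, was left out of the tests because it was well above background on only 1 of 6 arrays, Trsp-Ins1KO replicate 2. Its level there was -4.00, against -6.61 and -7.67 on the TrspFF arrays, -8.53 and -8.75 on the Trsp-RIPKO arrays and -8.14 on Trsp-Ins1KO replicate 1, all not well above background. It stands out as a signal outside the tested genes, above that of the control arrays, and it rests on 1 array. Of 8 marker genes of cerebellum 6 were tested, and their summed linear level was 18.7 on that array and 13.6 to 17.4 on the others. Among them Pcp2, a Purkinje cell gene, was at -0.28 there and between -2.44 and -1.50 elsewhere, and Cbln1, Calb1 and Zic1 were also highest there. Barhl1 lay within the range of the other arrays, and Neurod1, which granule cells express, was lowest there, at -3.39 against -3.31 to -2.74. The part of cerebellar tissue in this signal was not tested. Gabre, the other gene left out, was above background on 0 arrays, at -8.64 to -6.77.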

How the results depend on the processing

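The count of 0 receptor genes past the threshold changed in few of the alternatives. In Trsp-RIPKO against TrspFF it was 1 with normexp and 1 with trend and robust (Grik5), and 0 to 3 when 1 array was left out. In Trsp-Ins1KO against TrspFF it was 1 with signal above background required on all 6 arrays (Grin1), and 0 to 2 when 1 array was left out. Between the knockouts it was 2 in the fit of only the 2 groups (Gria1 and Gabrg3). Fits without a TrspFF array repeat that fit for the knockouts, and neither gene passed without a knockout array. The median receptor difference in Trsp-RIPKO against TrspFF was 0.156 with median scaling, -0.00985 with the mean of a gene's probes and -0.0252 with each probe on its own. In Trsp-Ins1KO against TrspFF it was 0.112, -0.0499 and -0.0873 under these 3 settings, 0.0737 with no filter, and -0.0146 to 0.0742 when 1 array was left out. Between the knockouts it was 0.0107 with quantile normalization, 0.0619 with the deposited value table under its own labels, and -0.0981 to 0.0463 when 1 array was left out. Median scaling moved the median of all genes to 0.0942 and 0.11 in the comparisons with TrspFF.

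With the value table under its own labels, the knockout differences were reversed: Gria1 -2.13, Gria2 -1.04, Gria3 -0.61, Grin1 -0.56, Gabra2 1.31 and Gabrg3 1.96; with columns named by the scanner files they match, all kept their sign. The 18 other alternatives left the sign of these 6 differences and of the AMPA and GABA-A medians unchanged. Several of them could not change it. The trend and robust fit, the fit of 2 groups, the replicate block and the 2-fold minimum leave every estimate as it was. Fits without a TrspFF array do so for knockout differences. With each probe on its own, the 6 single-gene values are those of the brightest probe, which is the tested one.

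Counts over all genes varied more. In Trsp-RIPKO against TrspFF the count was 379, and it was 0 with no filter, 0 with only the 2 groups, 0 with the replicate block, 785 with trend and robust, 224 with median scaling, 218 with a 2-fold minimum, and 0 to 495 when 1 array was left out. In Trsp-Ins1KO against TrspFF it was 416, and 25 with no filter, 0 with only the 2 groups or the replicate block, 1241 with trend and robust, 243 with a 2-fold minimum, and 0 to 511. Between the knockouts it was 4, and 318 with only the 2 groups, a fit that leaving out a TrspFF array repeats. It was 0 with the replicate block, 1 with normexp, no filter or trend and robust, and 2 with signal required on all 6 arrays. Replicate numbers did not mark pairs of arrays (correlations of deviations from -0.0251 to 0.0894), and with the replicate block 0 receptor genes were called in each comparison. With 2 arrays per group, and 1 slide for TrspFF, a difference of 1 log2 unit can be missed, and probes near background give levels that noise can move.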
